A study of Homo sapiens with 20 samples.

Results

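The regions described are iCLIP peaks that lie in the spans of exons skipped more often when hnRNPA1 was overexpressed. iCLIP crosslinks a protein to RNA and sequences the bound fragments, and each deposited peak is a stretch of RNA with its number of reads. A span runs from the upstream exon through the skipped exon to the downstream exon of 1 event. Events were chosen by measured inclusion, from the authors' deposited table of skipped exons: mean exon inclusion in the overexpression samples lay below that in the control samples. This held for 155 of 251 events, which fall on 142 of 237 distinct spans. Of 879095 peaks with at least 6 reads in the 16 iCLIP libraries, 5421 overlapped these 142 spans. On the strand of the event lay 5252 of them, comprising 1912 of hnRNPA1, 2753 of U2AF2 and 587 of SRSF1.

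The cells were TREX FLP-In 293T, a human embryonic kidney line that carries an integration site for an inducible transgene. Overexpression cells expressed T7-tagged hnRNP A1 from this system, and control cells are labelled as having no overexpression. The RNA control samples carry the description code of the inducible line, unlike the iCLIP controls, so whether RNA and iCLIP controls are the same line is uncertain. Per the labels, all cells were kept under tetracycline for 24 h after 3 days of selection, with hygromycin for the overexpression line and zeocin for the control line, so the line, its drug and the transgene cannot be told apart. hnRNPA1 was profiled in 2 overexpression and 2 control libraries, and U2AF2 and SRSF1 each in 3 overexpression and 3 control libraries, all from nuclear extracts. Inclusion came from 2 overexpression and 2 control polyadenylated RNA samples. Nothing in the labels says that libraries came from separate cultures, so p-values measure the spread between libraries. The overexpression was taken from the labels, and levels of HNRNPA1 RNA were not analysed here. RNA abundance enters every read number below: more protein on each RNA and more RNA cannot be told apart.

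hnRNPA1 is an abundant nuclear RNA-binding protein best known for repressing exons. U2AF2 is the large subunit of the factor that reads the polypyrimidine tract before a 3' splice site and helps to bring the U2 snRNP to the branch point. SRSF1 belongs to the SR proteins, named for their serine and arginine repeats, and acts through enhancer sequences in exons to favour inclusion. Several SR protein genes are themselves known for exons whose inclusion sends the mRNA to nonsense-mediated decay.

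Depth differed between conditions. Reads in peaks numbered 540256 and 566544 in the hnRNPA1 overexpression libraries, against 2940786 and 2480791 in control. For U2AF2 the overexpression libraries held 2259743 to 3136351 reads in peaks and the control libraries 692837 to 1145380. The least deep were those of SRSF1, at 170719 to 321129 reads for overexpression and 121534 to 168204 for control. U2AF2 overexpression replicate 3 was listed by its authors with peaks from 3 reads upwards, and only its peaks of at least 6 reads were used.

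Inclusion chose these spans and is given as a description. The change in inclusion over the 155 events had a median of -0.30 and ran from -0.66 to -0.005, with inclusion as a fraction between 0 and 1. Median inclusion was 0.275 with overexpression and 0.61 in control. Just inside the rule were KLHDC4, BLOC1S6 and CDK10 at -0.06, -0.02 and -0.005. Just outside it were GUSBP11, ABCC1 and CD164 at 0.03, 0.07 and 0.095. Control sample 1 was measured in 110 of the 155 events, so in the others the control value rests on 1 sample.

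Of the 142 spans, 126 held at least 1 peak on the event strand and 16 held none. hnRNPA1 peaks lay in 110 spans, U2AF2 peaks in 118 and SRSF1 peaks in 72. All 3 proteins had peaks in 64 spans, 2 proteins in 46 and 1 protein in 16. The pair of hnRNPA1 and U2AF2 without SRSF1 accounted for 41 spans. Spans had a median length of 5528 nt (878 to 346958 nt), and 4 pairs of spans overlapped. Overlapping spans were each counted on their own. The 3 spans of PSME3IP1 had identical values in the fits below and so enter those counts 3 times.

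Reads of U2AF2 in these spans made up a much smaller share of the library with overexpression. U2AF2 overexpression libraries had 0.476%, 0.510% and 0.438% of their reads in peaks there, against 1.67%, 1.71% and 1.70% in control. Every overexpression library lay below every control library, with means of 0.475% ± 0.0358 and 1.69% ± 0.0201 (SD, n = 3 each). The ratio was 0.281 (exact two-sided permutation p = 0.1, the smallest that 3 against 3 allows, adjusted 0.15 over 6 library relations). With the minimum number of reads matched to depth the means were 0.376% ± 0.0466 with overexpression and 1.81% ± 0.145 in control (SD, n = 3 each), a ratio of 0.208. SRSF1 lay the other way, with 0.846%, 1.02% and 0.921% in overexpression libraries and 0.791%, 0.568% and 0.763% in control libraries. These groups did not overlap either (ratio 1.31, exact p = 0.1, adjusted 0.15). hnRNPA1 itself had 0.766% and 0.673% with overexpression and 0.814% and 0.804% in control (ratio 0.889, exact p = 0.3333, the smallest that 2 against 2 allows, adjusted 0.4), and with the matched minimum the ratio was 0.653.

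**Figure D1:**
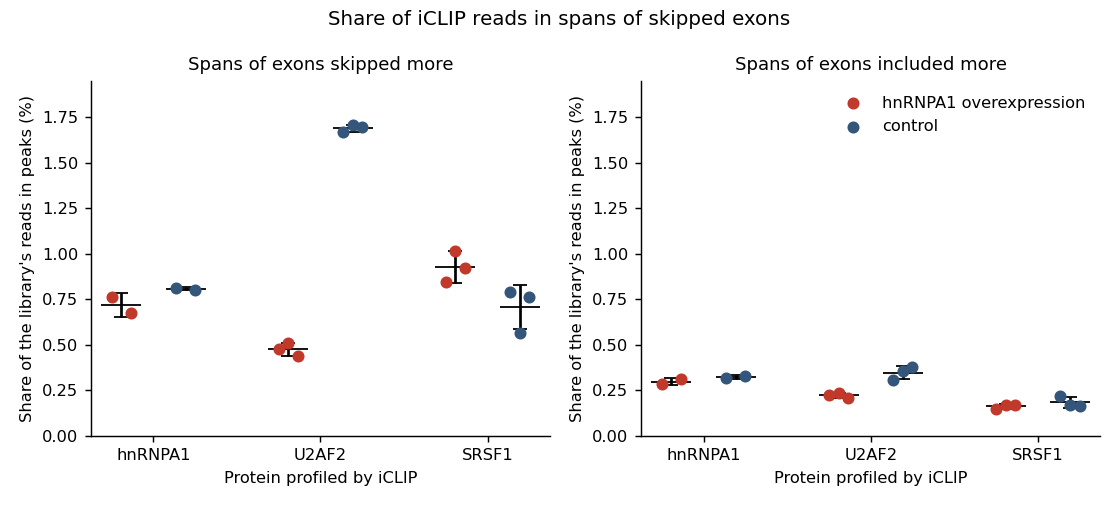
Share of each library's reads in peaks (percent, y axis) that lies in spans of exons skipped more (left) and included more (right), by protein (x axis). Points are libraries, and bars give the mean and SD. In the left panel the U2AF2 overexpression libraries sit between 0.438% and 0.510% and the control libraries between 1.67% and 1.71%.

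Spans of exons that were included more also held a smaller share of U2AF2 reads, 0.224% ± 0.0142 with overexpression and 0.348% ± 0.0348 in control (SD, n = 3 each), a ratio of 0.644. U2AF2 reads in spans of exons skipped more therefore stood at 2.12 times those in spans of exons included more with overexpression and at 4.89 times in control. This ratio of ratios was 0.434, with no overlap between conditions (exact p = 0.1, adjusted 0.15). With the matched minimum the U2AF2 figure by reads was 2.15 ± 0.0773 with overexpression and 5.09 ± 0.266 in control (SD, n = 3 each, ratio 0.422, exact p = 0.1). By number of peaks, also with the matched minimum, it was 2.44 ± 0.261 with overexpression and 2.80 ± 0.367 in control (SD, n = 3 each). That difference did not stand apart from the spread (ratio 0.873, exact p = 0.3). For SRSF1 the same figure, by reads and with the minimum of 6 reads, was 5.71 with overexpression and 3.89 in control (exact p = 0.1, adjusted 0.15). For hnRNPA1 it was 2.43 with overexpression and 2.50 in control (exact p = 1.0), and the libraries of the 2 conditions overlapped. With the matched minimum hnRNPA1 stood at 2.47 with overexpression and 3.65 in control (exact p = 0.3333).

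One span held much of the U2AF2 signal in control. ZNF711, which encodes an X-linked zinc finger transcription factor (chrX:84500909-84502657, plus strand, hg19), had 548, 691 and 468 U2AF2 reads with overexpression and 3640, 4064 and 6684 in control. It carried 31.3%, 30.6% and 34.0% of the U2AF2 reads summed over the spans in the control libraries, whereas no overexpression library had it first. In control replicate 3 those reads stood in a single peak of 3254 nt that runs past the span. Counting peaks by the part inside the span gave 3523 reads there, against at most 688 in any overexpression library. Overexpression replicate 3 had 25 peaks of at most 18 nt on ZNF711. Replicates 1 and 2 had 13 and 14 peaks, of up to 70 and 108 nt. Over all the spans its median peak width was 54 nt, beside 56 and 54.5 nt in those 2 libraries. What such splitting of peaks did to peak numbers was not tested. Without ZNF711 the share of U2AF2 reads in the spans was 0.452% ± 0.0280 with overexpression and 1.15% ± 0.0352 in control (SD, n = 3 each), a ratio of 0.395. U2AF2 reads over those in spans of exons included more then stood at 2.02 ± 0.0156 with overexpression. In control this figure was 3.32 ± 0.374 (SD, n = 3 each), a ratio of 0.61 in place of 0.434 (exact permutation p = 0.1). Inclusion of the ZNF711 exon was 0.20 and 0.24 with overexpression and 0.58 and 0.59 in control. SRSF1 reads on ZNF711 numbered 325, 732 and 478 with overexpression and 278, 267 and 270 in control, and hnRNPA1 reads 320 and 302 with overexpression and 1871 and 1578 in control. Neither passed the fit per span (adjusted p = 0.506 and 0.989).

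Fits per span covered all 237 spans of the table, with limma on log2 normalised reads and Benjamini-Hochberg adjustment. With the minimum number of reads per peak matched to the depth of each library, 59 of the 142 spans could be tested for U2AF2. Of these 41 were lower and 3 higher, where over all 86 spans tested 68.6% were lower and 4.65% higher. Leaving out control replicate 1, 2 or 3 reduced the 44 calls to 13, 13 and 14, with the filter on libraries with a peak applied anew. Spans with peaks in control libraries alone then no longer passed the filter and were not tested. The parts of the filter and of the replicate in this drop were not told apart. Quantile scaling gave 18 lower and 19 higher of 59. Spans that passed the filter of the full matched-minimum fit through control peaks alone had to differ, and the matched minimum left many overexpression libraries at 0. A fit restricted to spans with a peak of at least 6 reads in every library, chosen after the data were seen, called 33 lower and 7 higher of 53. Its background was 60.0% lower and 12.0% higher over 75 spans, and 31.6% lower and 30.2% higher over 6795 genes. With total reads as the scale that fit gave 24 lower and 8 higher of 53 (40.0% and 16.0% of 75 spans). With the minimum of 6 reads and peaks in part of the libraries, 30 were lower and 19 higher of 97, beside 27.1% and 19.3% of 166 spans. In the fit with a peak in every library the median log2 change was -1.33 for the 53 spans and 0.02 for all genes, and on the total-reads scale -0.54 and 0.83. Fitted log2 changes below come from that fit with its SE, unless another is named.

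Spans called in 4 settings alike (the matched minimum, the minimum of 6 reads, and the minimum of 6 reads with a peak in every library on either scale) numbered 24 lower and 1 higher for U2AF2, of 49 tested in all 4. Of 69 spans in the whole table, 43.5% were lower in all 4 and 2.9% higher. For SRSF1, 5 were higher and 0 lower in all 4 of 15, where 26.3% of 19 spans were higher and 0.0% lower. For hnRNPA1 limma called 0 of 48 in all 4, where the single settings called 7 to 29. In raw reads, all 3 U2AF2 overexpression libraries lay below all 3 control libraries in 15 of 118 spans (12.7%), although they were the deeper libraries, and above them in 51 (43.2%). Over all genes with a peak these shares were 3.55% and 55.6%.

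**Figure D2:**
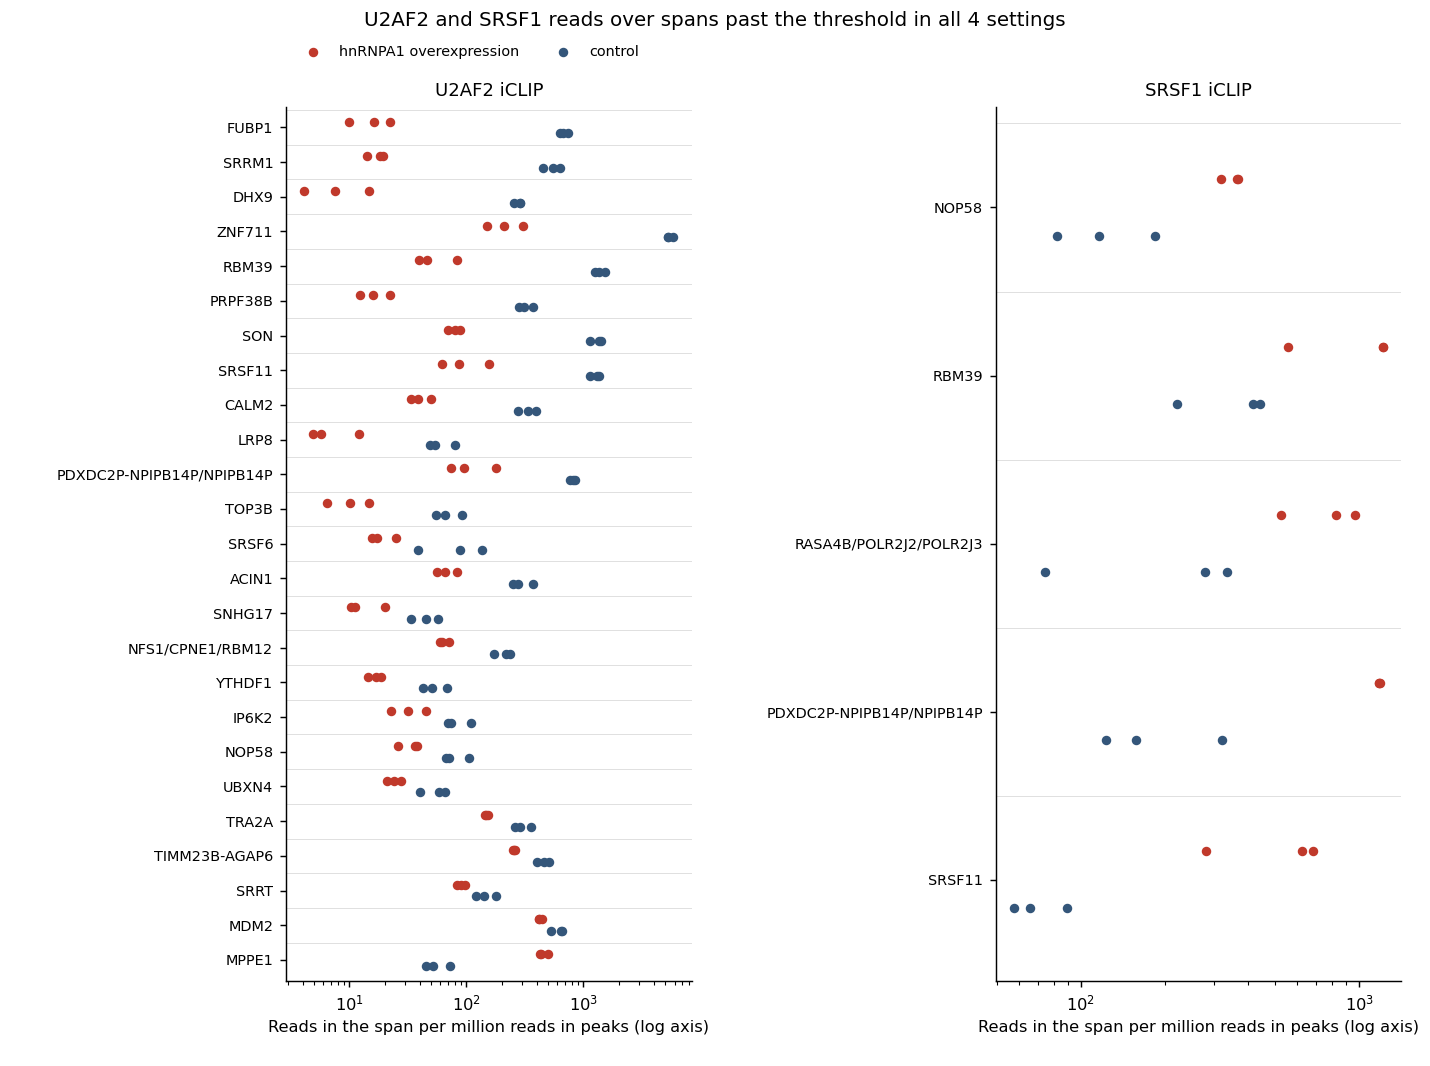
Reads in the span per 1000000 reads in peaks (log x axis), 3 overexpression and 3 control libraries per span, for the U2AF2 spans (left) and the SRSF1 spans (right) called in all 4 settings. Each point is a library. MPPE1 is the U2AF2 span with overexpression above control, and all 5 SRSF1 spans have overexpression above control.

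Genes of SR proteins, their cofactors and kinases had 6 spans among those skipped more, all with peaks. U2AF2 was lower in 6 of 6 in the matched-minimum fit (68.6% of 86 spans) and in both fits with a peak in every library (60.0% and, on total reads, 40.0% of 75 spans). The median log2 change was -3.74, beside -1.22 for all 75 spans. SON, a nuclear speckle protein with an SR-like domain (chr21:34941277-34945761, plus strand), had 184, 198 and 253 U2AF2 reads with overexpression and 977, 1048 and 1299 in control. Every overexpression library was below every control library, and per 1000000 reads in peaks the means were 79.4 ± 8.89 and 1299.7 ± 146 (SD, n = 3 each; log2 change -4.84 ± 0.18, adjusted p = 2.11e-08). SRSF11, an SR protein (chr1:70696778-70698060, plus strand), had 228, 354 and 193 reads with overexpression and 935, 1011 and 1313 in control (log2 change -4.55 ± 0.30), and quantile scaling ended its call in the matched-minimum fit (-3.58 ± 1.43, adjusted p = 0.0761, in place of -7.22 ± 1.88). SRRM1, an SR-related coactivator that bridges enhancers and the splicing machinery (chr1:24973158-24975520, plus strand), had 37, 41 and 61 reads with overexpression and 378, 491 and 516 in control (log2 change -5.73 ± 0.23, adjusted p = 3.01e-08).

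The other members were less far apart. SRSF6, an SR protein, had 41, 39 and 78 U2AF2 reads with overexpression and 27, 105 and 101 in control. Its raw reads overlapped, and the fitted change was -2.80 ± 0.47 (adjusted p = 0.000443). TRA2A, an SR-like enhancer-binding protein, had 385, 347 and 452 reads with overexpression and 182, 275 and 328 in control. Raw reads were thus higher with overexpression, while per 1000000 reads in peaks they were lower, 148 ± 4.92 with overexpression and 301.5 ± 48.2 in control (SD, n = 3 each), and quantile scaling ended the call in the matched-minimum fit (log2 change -2.58 ± 0.96, adjusted p = 0.0629, in place of -6.10 ± 1.41). ACIN1, a component of a complex tied to the exon junction, had 148, 188 and 208 reads with overexpression and 256, 213 and 288 in control, with every overexpression library below every control library.

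Splice site and spliceosome genes had 4 spans, those of RBM39, PRPF38B, DHX9 and MBNL2. U2AF2 was lower in 3 of the 3 tested in the matched-minimum fit, where 68.6% of 86 spans were lower, and in 3 of 3 with a peak in every library, where 60.0% of 75 were. MBNL2, a muscleblind splicing regulator, had too few peaks. RBM39, a splicing factor related in its domains to U2AF2 (chr20:34326890-34328519, minus strand), had 103, 187 and 144 U2AF2 reads with overexpression and 942, 1171 and 1430 in control. Groups were well separated, at 56.0 ± 23.5 and 1373.9 ± 133 reads per 1000000 (SD, n = 3 each; log2 change -5.49 ± 0.27, adjusted p = 1.04e-07). PRPF38B, a pre-mRNA processing factor, had 59, 28 and 50 reads with overexpression and 196, 288 and 358 in control. DHX9, an RNA helicase, had 20, 33 and 13 reads with overexpression and 177, 222 and 326 in control. Chromatin regulators had 2 spans and cell cycle genes 1, and no span belonged to the hnRNP family list. BPTF, a subunit of a nucleosome remodelling complex, had 78, 81 and 98 U2AF2 reads with overexpression and 0, 7 and 0 in control (adjusted p = 0.0563). SMARCA4, a remodelling ATPase, had at most 35 reads in any U2AF2 library and did not enter the matched-minimum fit. MDM2, the ubiquitin ligase of p53, had 1099, 946 and 1401 reads with overexpression and 456, 406 and 732 in control, and per 1000000 these were 428 ± 16.4 with overexpression and 607 ± 72.1 in control (SD, n = 3 each). The direction of MDM2 turned with quantile scaling, to a log2 change of 0.92.

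Outside those lists FUBP1, a single-stranded nucleic acid binding protein known as an activator of MYC (chr1:78409740-78412261, minus strand), had the largest fitted fall of the fit with a peak in every library. It had 43, 50 and 31 U2AF2 reads with overexpression and 438, 575 and 763 in control (log2 change -6.21 ± 0.28, adjusted p = 6.25e-08). CALM2, which encodes calmodulin, had 102, 113 and 105 reads with overexpression and 231, 306 and 318 in control. TOP3B, a topoisomerase, had 17, 33 and 32 reads with overexpression and 64, 51 and 63 in control. In each of these 3 spans all overexpression libraries lay below all control libraries in raw reads. NOP58, a core protein of box C/D snoRNPs, had 100, 59 and 115 reads with overexpression and 46, 55 and 120 in control, so its raw reads overlapped. The fall of NOP58 appears after scaling (33.6 ± 6.52 reads per 1000000 with overexpression and 80.8 ± 20.9 in control, SD, n = 3 each). Spans called lower in all 4 settings also included LRP8, IP6K2, YTHDF1, UBXN4, SRRT, SNHG17, TIMM23B-AGAP6 and a span shared by NFS1, CPNE1 and RBM12. Quantile scaling ended the calls of IP6K2, YTHDF1, SRRT, SNHG17 and NOP58 (adjusted p = 0.27, 0.0892, 0.39, 0.0909 and 0.376) and left TIMM23B-AGAP6 at a log2 change of -0.11 (0.756). Raw U2AF2 reads over TIMM23B-AGAP6 were higher with overexpression, 663, 582 and 814, against 353, 357 and 461 in control. The span of PDXDC2P-NPIPB14P and NPIPB14P was a further one, and its genes have near-identical copies, so its reads are uncertain.

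MPPE1, a metallophosphoesterase that acts on lipid anchors of proteins (chr18:11883472-11885815, minus strand), went against the rest. It had 1314, 980 and 1328 U2AF2 reads with overexpression and 50, 35 and 59 in control, or 452 ± 41.4 and 56.3 ± 14.1 per 1000000 (SD, n = 3 each; log2 change 2.20 ± 0.21, adjusted p = 9.57e-06). Inclusion of its exon was 0.52 and 0.42 with overexpression and 0.81 in the control sample that was measured. TRIM65, a ubiquitin ligase, had 385, 334 and 388 reads with overexpression and 22, 11 and 43 in control. CERS5, a ceramide synthase, had 371, 259 and 357 reads with overexpression and 15, 17 and 25 in control. TRIM65 and CERS5, chosen after their values were seen, rose where every library held a peak (adjusted p of limma 0.00296 and 0.000214) and not in the matched-minimum fit (0.0593 and 0.0647). RREB1, a zinc finger transcription factor, and NIPA2, a magnesium transporter, were named as higher by the matched-minimum fit. Both passed its filter through overexpression peaks alone and so had to differ, and NIPA2 lost its call with the minimum of 6 reads (adjusted p of limma 0.194). RREB1 had 87, 57 and 114 reads with overexpression and 0, 0 and 6 in control, and NIPA2 had 85, 98 and 106 with overexpression and 0, 6 and 15 in control.

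SRSF1 was higher over 5 of the 20 spans tested and lower over 1 in the matched-minimum fit, where 19.2% of 26 spans were higher and 3.85% lower. In the fit with a peak in every library 5 of 15 were higher and 0 lower, with 23.8% of 21 spans and 4.17% of 1845 genes higher and 2.6% of genes lower. On the scale of total reads the count was 5 higher and 1 lower (23.8% and 9.52% of 21 spans), and with the minimum of 6 reads 7 were higher and 2 lower of 38 (15.5% and 5.17% of 58 spans). Leaving out overexpression replicate 2 or control replicate 2 left 2 and 3 of the 6 calls of the matched-minimum fit, with its filter applied anew. SRSF11 had 48, 200 and 181 SRSF1 reads with overexpression and 11, 7 and 13 in control (log2 change 2.93 ± 0.52, adjusted p = 2.76e-06). RBM39 had 95, 390 and 322 reads with overexpression and 70, 27 and 64 in control (1.63 ± 0.45, adjusted p = 0.00283), and quantile scaling ended its call (0.36 ± 0.31, adjusted p = 0.465). NOP58 had 62, 118 and 84 reads with overexpression and 31, 10 and 17 in control. In all 3 spans every overexpression library exceeded every control library. The same held for 16 of the 72 spans with SRSF1 peaks (22.2%) and for 12.7% of all genes with a peak. The spans of RASA4B with POLR2J2 and POLR2J3, and of PDXDC2P-NPIPB14P with NPIPB14P, rose too, and both lie in duplicated sequence. Thinning ended the SRSF1 call of NOP58 (adjusted p = 0.0658), and quantile scaling that of RASA4B (0.0525). SRRM1 was lower, with 9, 0 and 47 reads with overexpression and 140, 52 and 82 in control (adjusted p = 0.0358, with 0.0506 on total reads and 0.0525 with quantile scaling). RBM39, SRSF11, NOP58 and PDXDC2P-NPIPB14P were thus lower for U2AF2 and higher for SRSF1 in all 4 settings. With quantile scaling PDXDC2P-NPIPB14P alone of these spans kept both calls.

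The difference between the responses was tested over spans with peaks of both proteins. With the matched minimum the U2AF2 change was below the SRSF1 change in 16 of 20 spans and above it in 1. Of the 24 spans of the whole set, 75.0% were below and 8.33% above. For U2AF2 against hnRNPA1 it was below in 32 of 43 and above in 2, with 73.8% of 65 spans below and 4.62% above. These shares are close to that background. Minimums were 31.4 reads or more in U2AF2 overexpression and hnRNPA1 control libraries, and 10.2 or fewer in U2AF2 control and hnRNPA1 overexpression libraries. Spans that passed through U2AF2 control peaks and hnRNPA1 overexpression peaks alone thus had to fall below. With a matched peak in every library 4 of 5 spans were below SRSF1 and 1 above (4 and 2 of 6 in the whole set). Against hnRNPA1 7 of 7 were below (11 of 12). With the minimum of 6 reads the difference from SRSF1 was below 0 in 17 of 36 and above in 2 (41.1% and 7.14% of 56 spans). Against hnRNPA1 it was below in 21 of 85 and above in 14 (21.1% and 19.7% of 142 spans). The difference from SRSF1 was then -7.48 on the log2 scale for SRSF11 and -7.12 for RBM39. It was -6.46 between U2AF2 and hnRNPA1 for SRRM1.

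hnRNPA1 signal over the spans had no direction that held. In the matched-minimum fit 17 of 56 spans were higher and 1 lower, with 30.7% of 88 spans higher and 1.14% lower. Leaving out any 1 of the 4 libraries left 0 calls there. The matched minimum was 6 reads in overexpression replicate 1 and 36.2 and 31.4 in the control libraries. Spans that passed its filter through overexpression peaks alone had to differ. For SLC25A16 the log2 change was 5.53 there and -0.14 with a minimum of 6 reads. With the matched minimum and a peak in every library 8 were higher and 0 lower of 25 (14 and 0 of 41 spans). With a minimum of 6 reads 3 were higher and 26 lower of 99 (3.12% and 26.9% of 160 spans). With a peak in every library 5 were higher and 2 lower of 50 (9.76% and 7.32% of 82 spans, 9.5% and 8.33% of 5738 genes), and with total reads as the scale 4 and 4 (6.1% and 9.76%). SRRM1 was among the higher ones, with 176 and 162 hnRNPA1 reads with overexpression and 616 and 499 in control (log2 change 0.73 ± 0.27, adjusted p = 0.0418). That call ended on the scale of total reads (0.57, adjusted p of limma 0.118), with thinning (0.60, 0.265) and with quantile scaling (0.05, 0.858). The overexpression libraries were the shallower ones here, and the part of depth was not tested. UBXN4, a protein of endoplasmic reticulum quality control, had 50 and 54 hnRNPA1 reads with overexpression and 144 and 105 in control, or 93.9 ± 1.96 and 45.6 ± 4.70 per 1000000 (SD, n = 2 each). It passed the matched-minimum fit, and not where every library held a peak (adjusted p of limma 0.0955). SON had 211 and 154 reads with overexpression and 1685 and 1457 in control, with a log2 change of -0.67 ± 0.23 (adjusted p of limma 0.0282 with peaks throughout and 0.268 with the matched minimum). FUBP1 had 129 and 112 reads with overexpression and 1096 and 970 in control. CEP20, a centriole protein, had 0 and 0 reads with overexpression and 110 and 108 in control.

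The remaining spans named as higher came from the matched-minimum fit and were low in reads. IPO9, an importin, had 21 and 34 hnRNPA1 reads with overexpression and 16 and 80 in control. EIF4E, the mRNA cap-binding protein, had 15 and 16 reads with overexpression and 85 and 15 in control. MOV10, an RNA helicase, had 30 and 8 reads with overexpression and 44 and 78 in control. None of these 3 passed where every library held a peak (adjusted p of limma 0.0589, 0.287 and 0.766). MIR4435-2HG, SLC25A16, NIPA2, YTHDF1 and PDXDC2P-NPIPB14P did not pass there either (adjusted p = 0.738, 0.95, 0.545, 0.738 and 0.059).

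The 8 spans with the largest falls in inclusion that held a peak carried at most 144 reads of a protein in any library. WNK1, a kinase that controls ion transport, had inclusion of 0.18 and 0.12 with overexpression and 0.81 in the measured control sample. Its hnRNPA1 reads numbered 16 and 39 with overexpression and 124 and 109 in control, and U2AF2 had 0, 0 and 8 with overexpression and 0, 0 and 50 in control. NADSYN1, an NAD synthetase, had SRSF1 peaks alone, with 8, 7 and 7 reads in overexpression and 0, 0 and 0 in control. CBY1, a regulator of beta-catenin, had U2AF2 peaks alone, with 38, 13 and 22 reads in overexpression and 0 in every control library. UBXN4 had 55, 62 and 76 U2AF2 reads with overexpression and 28, 45 and 75 in control. NPIPP1, a pseudogene with near-identical copies, had 0, 0 and 29 reads with overexpression and 83, 95 and 123 in control, and is uncertain. TEPSIN, ODF2L and TTC17 had at most 59 reads in any library. Across spans, the U2AF2 log2 change and the inclusion change had a Pearson correlation of 0.269 over 53 spans, with -0.155 over 50 for hnRNPA1 and -0.599 over 15 for SRSF1. These are descriptions over spans that share libraries.

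Exon positions within the spans were not in the table used, so place was measured in 5 equal segments of the span, numbered from its 5' to its 3' end. The shares pool the peaks of all spans. U2AF2 peaks of at least 6 reads lay in 97 to 101 spans per overexpression library and in 66 to 84 per control library. A shift along the span and a change in which spans held peaks cannot be told apart in these shares. U2AF2 peaks were more frequent in segment 4 with overexpression, 22.3% ± 0.482 of the peaks in the spans against 16.2% ± 0.324 in control (SD, n = 3 each; exact permutation p = 0.1, adjusted 0.375 over 15 places). They were less frequent in segment 1, 16.0% ± 0.468 with overexpression and 18.7% ± 0.718 in control (SD, n = 3 each). In both segments the conditions did not overlap. Segment 5 held the most U2AF2 peaks, 26.3% with overexpression and 26.1% in control. With the matched minimum, which left 47 to 74 peaks per overexpression library, segment 5 held 38.2% ± 5.06 with overexpression and 25.6% ± 2.85 in control, and segment 2 held 10.0% ± 2.50 with overexpression and 21.1% ± 1.37 in control (SD, n = 3 each). Segment 4 held 23.8% with overexpression and 15.8% in control there. None of the 5 segments overlapped between conditions with the matched minimum (exact p = 0.1 for each, adjusted 0.188). The shifts in segments 5 and 2 did not hold with libraries thinned to equal reads in peaks. Segment 5 then held 29.9% with overexpression and 26.1% in control, and segment 2 held 19.0% and 20.8%. Conditions overlapped in both, and stayed apart in segments 1, 3 and 4. With the minimum of 6 reads segment 2 held 19.4% with overexpression and 20.7% in control, also with overlap.

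SRSF1 peaks were more frequent in segment 2, 21.7% ± 2.05 with overexpression and 11.6% ± 6.29 in control, and less so in segment 5, 25.6% ± 2.09 with overexpression and 34.7% ± 4.63 in control (SD, n = 3 each; exact p = 0.1 for both, adjusted 0.375). Control replicate 2 had 46 such peaks in all, with 4.35% in segment 2. hnRNPA1 peaks of at least 6 reads were spread near evenly, with 18.7% to 22.1% per segment in overexpression and 17.8% to 24.1% in control. With the matched minimum hnRNPA1 control peaks ran from 12.9% in segment 1 to 26.0% in segment 2. Segment 1 then held 19.2% ± 0.394 with overexpression and 12.9% ± 0.118 in control (SD, n = 2 each, exact p = 0.3333, adjusted 0.385), without overlap.

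**Figure D3:**
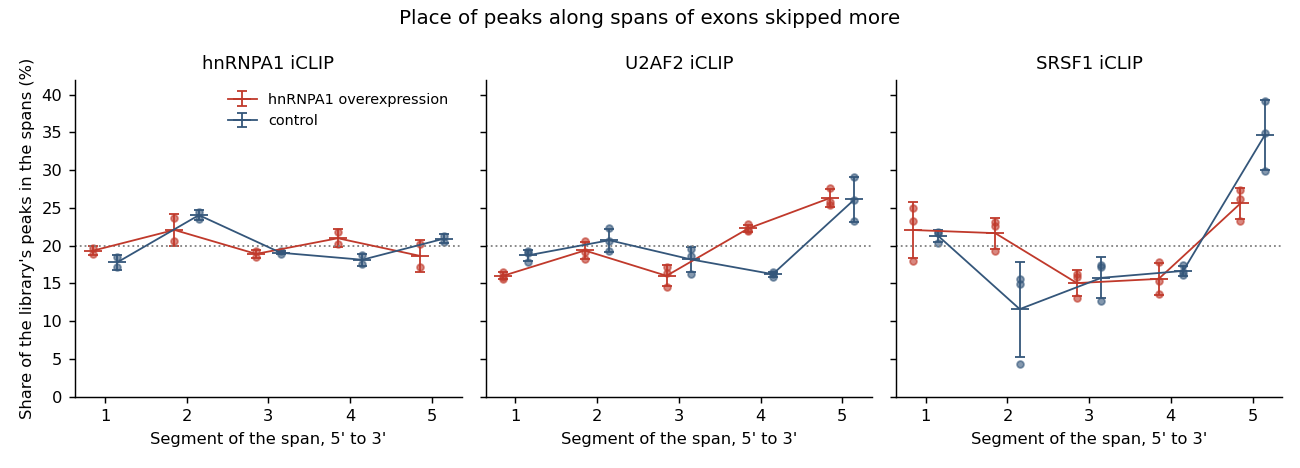
Share of a library's peaks in the spans (percent, y axis) by segment of the span from 5' to 3' (x axis), for peaks of at least 6 reads. Points are libraries, horizontal marks with bars give mean and SD, and the dotted line marks an even spread. In segment 4 the U2AF2 overexpression libraries sit between 21.9% and 22.8% and the control libraries between 15.9% and 16.5%.

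Within single spans the place of reads moved as well. In the RBM39 span, 17 of 434 U2AF2 reads lay in segment 5 with overexpression, against 1040 of 3543 in control, and segment 2 held 0 with overexpression and 501 in control. Segment 4 held 35.9% of U2AF2 reads with overexpression and 11.2% in control. SRSF1 reads in segments 4 and 5 of RBM39 numbered 60 and 144 with overexpression and 0 and 0 in control. In the SON span 0 of 635 U2AF2 reads lay in segment 3 with overexpression and 895 of 3324 in control, where hnRNPA1 had its most reads in control, 1491 of 3142. In SRSF11 segment 2 held 21 of 775 U2AF2 reads with overexpression and 431 of 3259 in control, and it also held 585 of the 929 hnRNPA1 control reads. In FUBP1 segment 5 held 104 of 124 U2AF2 reads with overexpression, against 464 of 1776 in control. FUBP1 segment 4 held the most hnRNPA1 control reads, 758 of 2066, and U2AF2 had 0 reads there with overexpression and 163 in control. In RBM39 hnRNPA1 control reads numbered 435 of 1588 in segment 2 and 108 in segment 5. In SRRM1 segment 4 held the most, 342 of 1115. U2AF2 reads there numbered 96 with overexpression and 266 in control, which was 69.1% and 19.2% of its reads in the span. SRRM1 segment 3 held 10 U2AF2 reads with overexpression and 592 in control, with 264 hnRNPA1 control reads. The segment with the most hnRNPA1 control reads was thus not in every span the one where U2AF2 reads fell most. These are sums over libraries, given without a test.

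**Figure D4:**
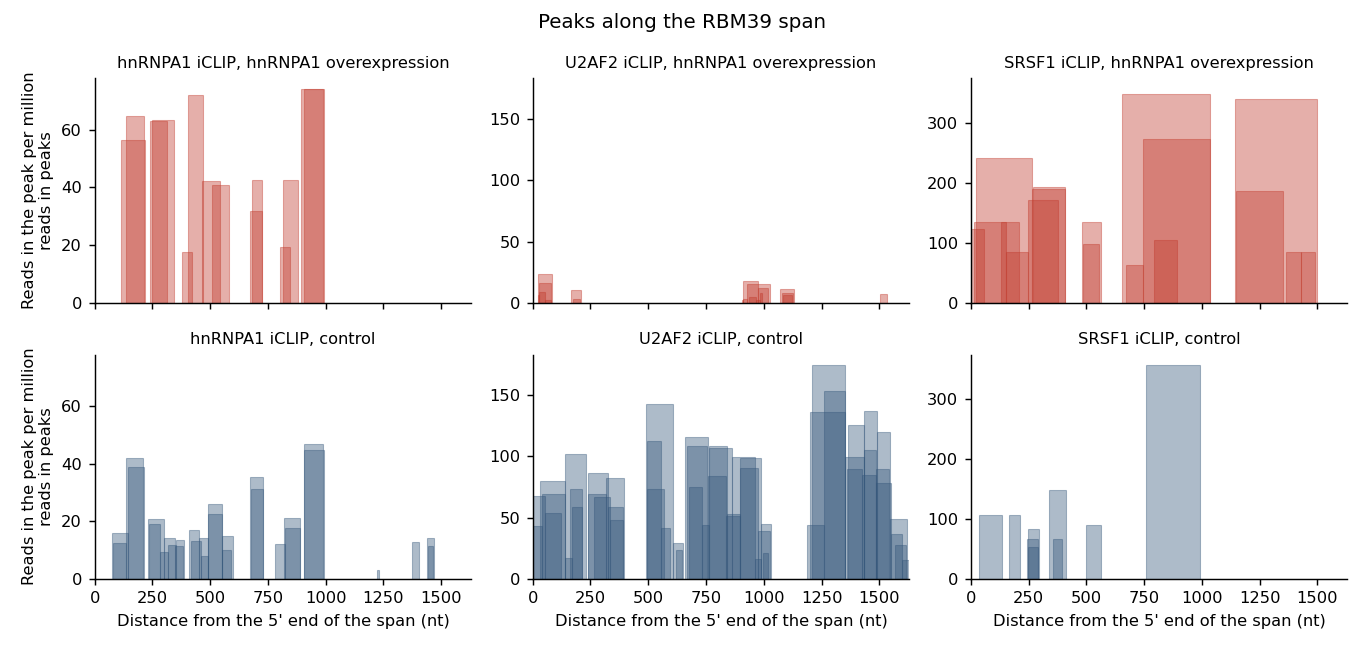
Peaks along the RBM39 span by distance from its 5' end (nt, x axis), with bar width the width of the peak and bar height its reads per 1000000 reads in peaks (y axis), overlaid for all libraries of a condition. Overexpression is in the upper row and control in the lower row, with hnRNPA1, U2AF2 and SRSF1 from left to right. U2AF2 bars are low throughout with overexpression, where the libraries had 103 to 187 reads in the span, against 942 to 1430 in control.

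The single sites behind these changes were merged peaks in the spans, tested over all merged sites of the genome. With the matched minimum 94 of 129 U2AF2 sites were lower and 14 higher, where 41.4% of 14446 sites were lower and 27.9% higher. Sites that passed through the peaks of 1 condition alone had to differ, and with a peak in every library 8 sites could be tested, of which 4 were lower and 1 higher. With the minimum of 6 reads the count turned, to 98 lower and 175 higher of 333, beside 12.0% lower and 69.6% higher over the genome. The overexpression libraries were the deeper ones, and the part of depth in this turn was not tested. The 5 largest falls included sites at chr20:34326888-34327166 in RBM39, with 0, 17 and 0 reads in overexpression and 202, 334 and 385 in control, and chr21:34942737-34942996 in SON, with 0 in every overexpression library and 129, 149 and 167 in control. At chr12:69234103-69234225 in MDM2 U2AF2 had 147, 145 and 156 reads with overexpression and 0 in every control library. For SRSF1, 8 of 27 sites were higher and 2 lower (12.0% and 13.2% over the genome), and with the minimum of 6 reads 11 were higher and 4 lower of 62 (10.9% and 6.17%). A site at chrX:84501286-84501515 in ZNF711 had 54, 75 and 38 SRSF1 reads with overexpression and 0 in every control library. For hnRNPA1 44 of 171 sites were higher and 37 lower (36.9% and 16.5% over the genome), and with the minimum of 6 reads 33 were higher and 208 lower of 416 (8.19% and 46.9%).

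The span took a smaller part of its gene's U2AF2 reads with overexpression. Over 53 spans with reads in every library the median share of the gene's reads in the span was 60.9% ± 1.52 with overexpression and 78.1% ± 3.34 in control (SD, n = 3 each, exact p = 0.1). For SRSF1 it was 63.1% ± 2.16 with overexpression and 44.8% ± 4.27 in control over 14 spans (SD, n = 3 each, exact p = 0.1). For hnRNPA1 it was 73.6% ± 4.64 with overexpression and 63.0% ± 0.560 in control over 50 spans (SD, n = 2 each, exact p = 0.33). Depth differed between the conditions in each protein, and its part in these shares was not tested.

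U2AF2 peaks in the spans overlapped hnRNPA1 control peaks less often with overexpression. The shares were 29.7%, 32.5% and 29.6% in overexpression libraries and 58.4%, 58.4% and 56.4% in control libraries, an overlap of at least 1 nt on the same strand being enough (exact p = 0.1). Over all U2AF2 peaks the shares were 31.2% ± 0.891 with overexpression and 43.6% ± 2.56 in control (SD, n = 3 each). The mean for peaks in the spans was 30.6% ± 1.64 with overexpression, within the spread of all peaks, and 57.8% ± 1.16 in control (SD, n = 3 each), above all peaks. SRSF1 peaks in the spans overlapped hnRNPA1 control peaks in 65.4% ± 0.584 with overexpression and 64.6% ± 3.50 in control (SD, n = 3 each, exact p = 0.8), a difference within the spread. The median width of U2AF2 peaks in the spans was 54 to 56 nt in overexpression libraries and 66 to 69 nt in control libraries. The U2AF2 overexpression libraries were also the deeper ones, with 530 to 683 peaks in the spans against 296 to 374 in control. All peaks of at least 6 reads were counted, without a minimum matched to depth. The parts of width and depth in the overlap were not tested.

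**Figure D5:**
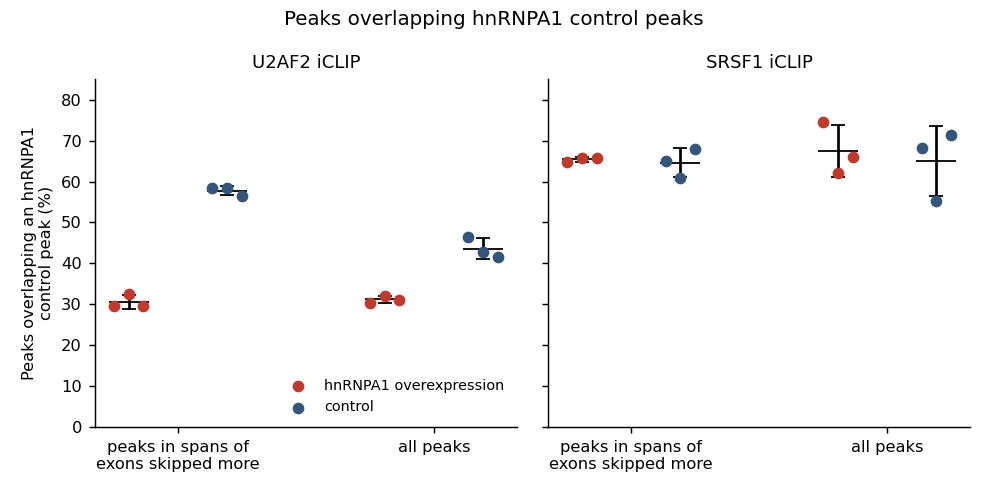
Share of peaks (percent, y axis) that overlap an hnRNPA1 control peak, for peaks in spans of exons skipped more and for all peaks (x axis), in U2AF2 (left) and SRSF1 (right) libraries. Points are libraries, and bars give mean and SD. U2AF2 peaks in the spans sit at 29.6% to 32.5% with overexpression and at 56.4% to 58.4% in control.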

How the data were processed

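Per the submitters' processing notes, TopHat and Bowtie2 were used with build hg19, and per the file headers iCLIP peaks were called by the authors with CLIPper in its pre-mRNA mode after a repeat filter. Versions are not given in the sources used here. The deposited peaks carry a number of reads each. The deposited table holds exon inclusion as a fraction per RNA sample, and each Bayes factor as a ratio and each difference or call as a score per pair of samples, per the file headers. Peaks needed at least 6 reads and an overlap of 1 nt with a span. The strand of a span was that of the gene carrying most of its peaks, and a span was named by genes with at least 20% of its peaks. No exon positions were used, so place was taken in 5 segments where exon and intron had been planned. No sequence was used.

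Reads in peaks per span were divided by median-of-ratios size factors. The matched minimum was 6 reads in the shallowest library, scaled by size factor elsewhere, and a span needed a peak in 50% of the libraries. log2(normalised reads + 1) was fitted with limma 3.58.1 in R 4.3.3 (trend, two-sided, adjusted p threshold 0.05, Benjamini-Hochberg over all spans or all merged sites). The added 1 understates the change of low spans. Where the matched minimum set libraries to 0 the fold could be larger instead. For SRRM1 the U2AF2 log2 change was -10.07 with the matched minimum and -5.73 with the minimum of 6 reads. Library shares were compared by two-sided exact permutation tests in Python 3.11.15. Inclusion was not tested, because it chose the spans. Named spans were up to 8 with the largest change in each direction per protein, the 8 with most reads, the 8 with the largest fall in inclusion and the members of 5 gene lists, with up to 5 sites per direction. Scripts were tested on simulated data. The members, lists and tests were chosen with earlier results of these data known. No other per-sample columns were present (0).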

Additional observations from a re-analysis of the deposited data

Results flagged for a closer look

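The U2AF2 response differed from that of another protein over single spans, by limma's interaction of protein and condition with Benjamini-Hochberg adjustment over all spans tested. It differed from SRSF1 in 15 of the 20 spans tested under both minimums, 75.0%, beside 70.8% of 24 spans of the whole set. It differed from hnRNPA1 in 22 of 43, 51.2%, beside 46.2% of 65. Under the matched minimum, spans that passed through U2AF2 control peaks and hnRNPA1 overexpression peaks alone had to differ. With the minimum of 6 reads, the U2AF2 change minus the SRSF1 change was -7.48 on the log2 scale for SRSF11, -7.12 for RBM39, -6.56 for PDXDC2P-NPIPB14P/NPIPB14P, -6.11 for DHX9 and -5.77 for ZNF711. The U2AF2 change minus the hnRNPA1 change was -6.46 for SRRM1, -5.91 for RBM39, -5.62 for PDXDC2P-NPIPB14P/NPIPB14P, -5.56 for FUBP1 and -5.48 for ZNF711. The PDXDC2P-NPIPB14P span lies in duplicated sequence. Depth runs in opposite directions between conditions for U2AF2 and hnRNPA1, and its part was not tested.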

How the results depend on the processing

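U2AF2 and SRSF1 shares of reads in the spans kept their direction under every alternative run, and with the matched minimum their log2 changes, -2.26 for U2AF2 and 0.51 for SRSF1, ran from -2.36 to -2.18 and from 0.36 to 0.64 when 1 library was left out. Numbers of spans called moved more. hnRNPA1 went from 18 spans to 0 with quantile scaling, 29 with a minimum of 6 reads, 8 with a peak in every library, 7 with both, 8 with both on total reads, 11 after thinning and 0 to 0 with 1 library left out. U2AF2 went from 44 spans of 59 tested to 12 of 16 with a peak in every library. It went to 13 to 43 with 1 library left out, where the filter was applied anew. SRSF1 went from 6 to 3 with quantile scaling, 2 by number of peaks and 2 to 6 with 1 library left out. Sites went from 81 to 241 (minimum of 6 reads), 23 (a peak in every library) and 41 to 69 (1 library left out) for hnRNPA1, from 108 to 273, 5 and 22 to 95 for U2AF2, and from 10 to 3 (a peak in every library) and 2 to 8 (1 library left out) for SRSF1. Differences between proteins went to 5 spans for SRSF1 and 7 for hnRNPA1 with a peak in every library, where few spans could be tested. The causes were not tested.

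The U2AF2 difference in segment 1 turned to 0.59 percentage points by share of reads. That of SRSF1 in segment 3, 0.16 percentage points, turned to -0.70 with a minimum of 6 reads, -3.54 by the 5' end of peaks, -0.73 after thinning and -1.03 to 1.89 with 1 library left out. The hnRNPA1 log2 change turned for SLC25A16 (-0.14, and -0.30 on total reads), NFS1/CPNE1/RBM12 (-0.071 and -0.23) and YTHDF1 (-0.56 and -0.72) with a minimum of 6 reads, and for SRRM1 (-0.21) and UBXN4 (-0.585) by number of peaks. The U2AF2 change of MDM2 turned to 0.92 with quantile scaling. Libraries of equal number shared only that number (correlations of deviations -0.014 to 0.015). A fit with the replicate number as a block called 16 spans and 71 sites for hnRNPA1, 41 and 106 for U2AF2 and 6 and 7 for SRSF1. Depth limits hnRNPA1 overexpression, U2AF2 control and all SRSF1 libraries, and reads outside called peaks were not analysed here.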
